A study of Mus musculus with 14 samples.

Results

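The genes described here are 8 genes of the red cell lineage measured in liver tumours: Slc4a1, Hbb-bs, Hbb-bt, Hba-a1, Hba-a2, Alas2, Epb42 and Klf1. They were taken by their symbols from the deposited gene tables, and all 8 were found among the 17139 genes that the 2 tables list between them (8 of 16821 in the first, 8 of 16095 in the second). The tumours were hepatocellular carcinomas of mice driven by MYC, and total RNA of the whole tumour was sequenced in 14 libraries. In the first table, 4 tumours carried a guide RNA against GFP, a sequence with no target in the mouse genome (sgGFP), 3 a guide against Cul3 (sgCul3) and 3 a guide against Keap1 (sgKeap1), all by Cas9 editing. In the second table, 2 tumours edited at the ETGE motif of NRF2 (sgNrf2 A and B) stood beside 2 libraries of genotype control (A and B), which the labels describe as repeats of sgGFP tumours 2 and 4. KEAP1 and CUL3 form the ubiquitin ligase that holds the transcription factor NRF2 at a low level, and KEAP1 binds NRF2 at the ETGE motif. The labels give no age, sex or strain and do not say whether each tumour came from its own animal, so the p-values below measure only the spread between these samples.

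Red cells arise from erythroid progenitors in bone marrow and spleen, and in the fetus in the liver. As progenitors mature, the transcription factors GATA1, TAL1 and KLF1 switch on the globin genes, the enzymes of heme synthesis and the proteins of the red cell membrane and its skeleton. Slc4a1 encodes band 3, the chloride-bicarbonate exchanger that anchors the membrane to the skeleton, and Epb42 encodes protein 4.2, which binds band 3. Hbb-bs and Hbb-bt encode adult beta globin and Hba-a1 and Hba-a2 adult alpha globin, Alas2 encodes the erythroid form of the first enzyme of heme synthesis, and Klf1 encodes a zinc finger factor that binds CACCC elements. Hepatocytes do not make these proteins, and young red cells in the circulation still carry globin mRNA.

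On GRCm38, with gene bodies from GENCODE M21, the beta globin genes lay 12538 bases apart on chromosome 7 (Hbb-bs at 103826534 to 103828096 and Hbb-bt at 103812524 to 103813996, minus strand). The alpha globin genes lay 12024 bases apart on chromosome 11 (Hba-a1 at 32283511 to 32284465 and Hba-a2 at 32296489 to 32297298, plus strand). Slc4a1 was on chromosome 11 at 102348824 to 102366203 (minus strand), Alas2 on chromosome X at 150547375 to 150570638 (plus strand), Epb42 on chromosome 2 at 121017891 to 121037072 (minus strand) and Klf1 on chromosome 8 at 84901928 to 84905291 (plus strand). All 8 are protein-coding. The nearest tested neighbours of Slc4a1 (Atxn7l3, Ubtf, Slc25a39 and Grn) did not pass the test with either ligase guide (limma adjusted p 0.0603 to 0.779). Among the nearest tested neighbours of all 8 members, only Tmem62 near Epb42 (log2 1.53, adjusted p 0.00655) and Dnase2a near Klf1 (1.85, 0.0154) rose, both with sgKeap1. With that guide 4.45% of all genes tested rose, so these 2 are not read as a result about the loci.

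The globin, Alas2 and Klf1 promoters, on 4 chromosomes, are shown because Klf1, itself a member, is known for binding CACCC in globin promoters. These genes were low in the edited tumours, except the globins in sgCul3 tumour 2, which lay within the sgGFP range. Each line gives the 120 bases before the RefSeq start of the gene (GRCm38.p6, 5′ to 3′ on the gene's strand, from the RefSeq promoter table, which held 7 of the 8 genes and not Slc4a1). The windows are chr7:103827929-103828048 for Hbb-bs, chr7:103813924-103814043 for Hbb-bt, chr11:32296372-32296491 for Hba-a2, chrX:150547297-150547416 for Alas2 and chr8:84901862-84901981 for Klf1. Capitals mark every match, on either strand, to the KLF motif CACCC (read on the other strand as GGGTG), the GATA motif GATAA (read there as TTATC), the CCAAT box (read there as ATTGG) and the motif TATAA of the core promoter (read there as TTATA). Matches may overlap.
Hbb-bs: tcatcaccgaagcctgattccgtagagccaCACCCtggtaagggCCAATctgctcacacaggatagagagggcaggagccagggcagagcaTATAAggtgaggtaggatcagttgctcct
Hbb-bt: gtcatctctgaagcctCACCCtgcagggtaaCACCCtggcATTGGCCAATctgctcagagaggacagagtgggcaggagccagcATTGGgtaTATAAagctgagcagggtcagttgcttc
Hba-a2: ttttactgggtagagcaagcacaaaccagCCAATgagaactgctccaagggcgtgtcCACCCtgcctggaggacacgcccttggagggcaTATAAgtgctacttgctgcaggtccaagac
Alas2: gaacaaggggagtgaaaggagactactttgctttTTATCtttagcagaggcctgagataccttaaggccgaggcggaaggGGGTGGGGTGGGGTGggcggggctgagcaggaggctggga
Klf1: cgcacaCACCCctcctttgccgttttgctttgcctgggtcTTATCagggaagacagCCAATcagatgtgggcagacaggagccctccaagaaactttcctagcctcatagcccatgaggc
CACCC was found in 6 of the 7 windows and in 31.7% of 32851 RefSeq windows of the same length, and TATAA in the 4 globin windows and in 11.8% of all. CCAAT was found in 5 of 7 against 21.3% of all, and GATAA in Alas2 and Klf1 against 10.5% of all. The Epb42 window, which is not printed, held none of the 4. Epb42 was also low in the edited tumours. The Hba-a1 window was the Hba-a2 window shifted by a few bases (117 of 117 overlapping bases identical), so it is not printed, and the counts for these motifs other than the GATA motif hold this one sequence under both names. GENCODE M21 places some starts further upstream, and the 5 printed windows overlap its gene bodies by 3 bases (Hba-a2) to 120 bases (Hbb-bs). A match is a string of letters in the window and not a measured site.

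Reads assigned to genes numbered 6333025 to 12008223 per library in the first table, and in the second they numbered 17819333 to 20848578. In the first table sgCul3 tumour 1 and sgKeap1 tumours 2 and 3 held 6333025 to 6754550, and sgGFP tumours 10739965 to 12008223. Levels below are DESeq-scaled reads, in which 1 read was worth 0.675 to 2.03, and they can be compared within a table and not between the tables, which were scaled separately. Of the targeted genes, Keap1 was at 287 to 462 scaled reads in sgKeap1 tumours and 582 to 721 in sgGFP tumours (limma adjusted p 0.0485). Cul3 was at 163 to 676 in sgCul3 and 935 to 1372 in sgGFP tumours (0.0509). In sgKeap1 tumours Cul3 was at 596 to 895, also below every sgGFP tumour (0.313), and overlapped the sgCul3 range. Nfe2l2, which encodes NRF2, overlapped between sgNrf2 and control libraries. Markers of hepatocytes, the labelled cell type, were present in every library (12 of 12 tested, none of them past the test with any of the 3 guides). The 10 most abundant genes took 24.5% of reads in sgKeap1 tumour 2 and between 8.10% and 18.0% in its 9 companions. In whole tumours, fewer cells of a type and less RNA per cell cannot be told apart.

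In the sgGFP tumours the red cell genes formed a steep ladder of levels per length. Hbb-bs was highest at 804 ± 264 RPKM (reads per kilobase of exon, scaled to library size; SD, n = 4), followed by Hbb-bt at 227 ± 86.2, Hba-a1 at 159 ± 97.5 and Hba-a2 at 113 ± 77.4. Alas2 was at 19.9 ± 5.13, Slc4a1 at 7.32 ± 2.92, Klf1 at 2.21 ± 0.619 and Epb42 at 0.584 ± 0.246. The ranges of Hbb-bt, Hba-a1 and Hba-a2 overlapped, so the order among these 3 was within their spread. The globin copies are near duplicates: of the 50-base windows of their transcripts, 46.8% in Hbb-bs, 41.7% in Hbb-bt, 27.7% in Hba-a1 and 10.7% in Hba-a2 occurred in no other gene, against 100% in the other 4 members, so the split of reads within each globin pair is uncertain.

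Slc4a1, the band 3 exchanger, was at 432, 328, 306 and 214 scaled reads in sgGFP tumours 1 to 4. In sgCul3 tumours 1 to 3 it was at 0, 40.8 and 2.35, and in sgKeap1 tumours 1 to 3 at 2.45, 8.11 and 4.33. All 6 ligase-guide tumours therefore lay below the lowest sgGFP tumour, and 5 of them rested on 0 to 4 reads, while sgCul3 tumour 2 had 46. The 0 of sgCul3 tumour 1 allows up to 4.14 scaled reads (3 reads), and the 3 reads of sgKeap1 tumour 1 allow 0.506 to 7.16 (exact 95% Poisson interval, for counting error only).

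Epb42, the band 3 partner protein 4.2, repeated this pattern at a level near the floor of detection. It was at 27.7, 44.5, 24.8 and 17.9 scaled reads in sgGFP tumours 1 to 4, at 0, 7.98 and 0.782 in the sgCul3 tumours and at 0.817, 4.05 and 1.44 in the sgKeap1 tumours. No guide tumour reached the sgGFP range. The 3 sgCul3 tumours held 10 reads of Epb42 and the 3 sgKeap1 tumours 4, against 147 in the 4 sgGFP tumours.

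The beta globins stood apart from the membrane genes in a single tumour. Hbb-bs was at 2694, 5418, 7165 and 8215 scaled reads in sgGFP tumours 1 to 4, at 877, 7688 and 261 in the sgCul3 tumours and at 1429, 1439 and 1398 in the sgKeap1 tumours. Hbb-bt was at 692, 1199, 1956 and 2233 with sgGFP, at 167, 1608 and 61.0 with sgCul3 and at 242, 278 and 231 with sgKeap1. The sgKeap1 tumours were tight and low, at 23.8% to 24.5% of the sgGFP mean for Hbb-bs and 15.2% to 18.3% for Hbb-bt. The sgCul3 tumours spanned 29.4-fold for Hbb-bs, because tumour 2 lay within the sgGFP range while tumours 1 and 3 lay below all sgGFP tumours.

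The alpha globins repeated this. Hba-a1 was at 464, 638, 1565 and 2346 scaled reads in sgGFP tumours 1 to 4, at 236, 1009 and 29.7 with sgCul3 and at 235, 180.4 and 167 with sgKeap1. Hba-a2 was at 227, 332, 954 and 1422 with sgGFP, at 131, 688 and 34.4 with sgCul3 and at 165, 158 and 119.8 with sgKeap1. Both genes varied among the sgGFP tumours themselves, 5.06-fold for Hba-a1 and 6.27-fold for Hba-a2, in contrast to 2.02-fold for Slc4a1. All 4 globins were lowest in sgGFP tumour 1 and highest in sgGFP tumour 4, the reverse of Slc4a1.

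Alas2, the erythroid heme synthesis enzyme, was at 314, 348, 616 and 513 scaled reads in sgGFP tumours 1 to 4. It was at 30.4, 235 and 20.3 in the sgCul3 tumours and at 89.9, 28.4 and 30.3 in the sgKeap1 tumours. Unlike the globins, Alas2 in sgCul3 tumour 2 lay below every sgGFP tumour. Klf1, the erythroid factor, was low everywhere, at 28.3, 18.4, 39.0 and 40.3 with sgGFP, 6.91, 13.3 and 10.2 with sgCul3 and 8.99, 8.11 and 11.5 with sgKeap1. Its groups did not overlap, but the 6 guide tumours rested on only 4 to 15 reads each.

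**Figure D1:**
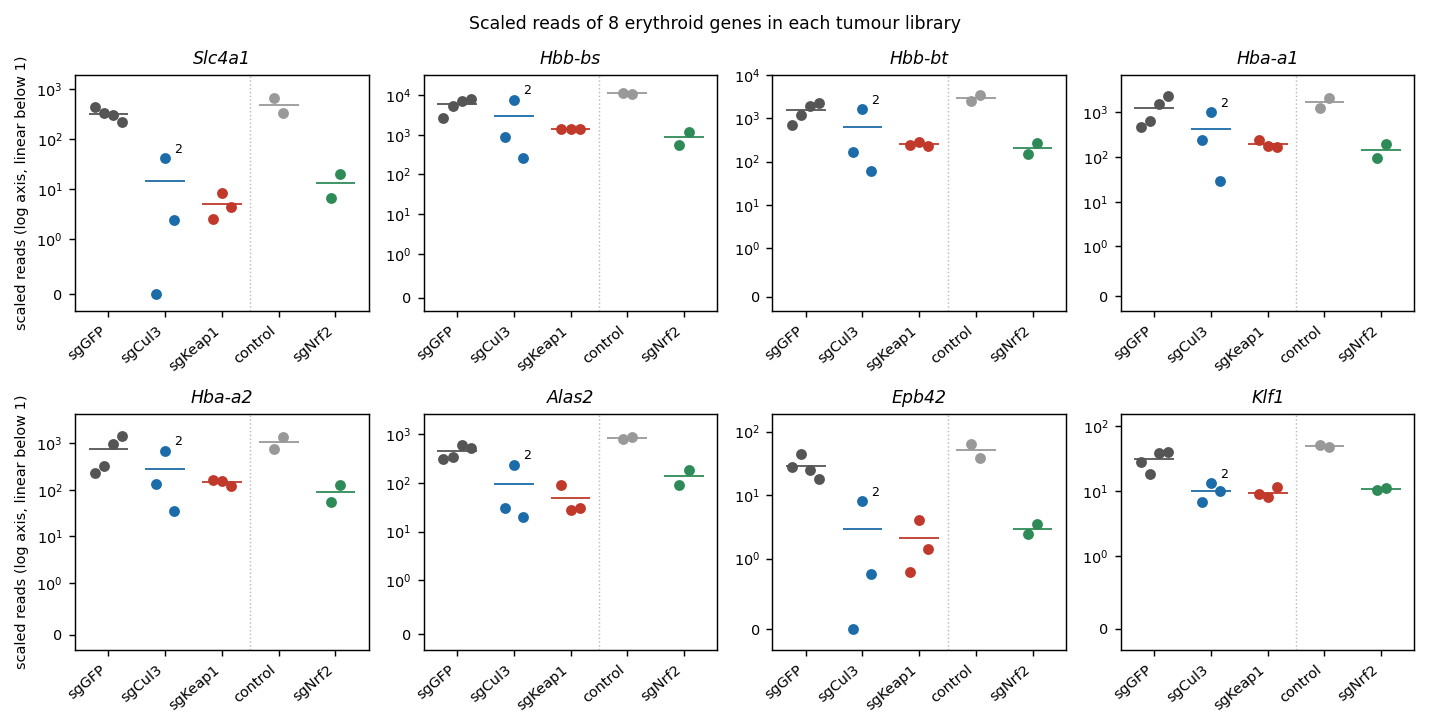
Scaled reads of each of the 8 genes (vertical log axis, linear below 1) in every library, by group; points are tumours, short lines group means, and the 2 groups right of the dotted line belong to the separately scaled second table. The digit 2 marks sgCul3 tumour 2, which lay within the sgGFP range for the 4 globins and below it for Slc4a1, Alas2, Epb42 and Klf1.

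In the Cul3-guide comparison 2 of the 8 genes fell, against 0.851% of the 13045 genes tested. Slc4a1 fell with a log2 fold change of -5.44 ± 0.83 (SE, limma adjusted p 0.00925) and Epb42 with -2.94 ± 0.62 (0.0408). Fold changes here are on the scale log2(deposited value + 1), which understates the change of genes with few reads, and a gene was called at an adjusted p under 0.05. Alas2 (-2.96 ± 0.71, adjusted p 0.0592), Klf1 (-1.44 ± 0.41, 0.0991) and the 4 globins (-1.92 to -2.42, 0.175 to 0.284) did not pass. Slc4a1, Alas2, Epb42 and Klf1 lay below the sgGFP tumours without overlap, 4 of 8 members against 7.54% of genes tested. No member rose, against 1.35% of genes tested, and none lay above the sgGFP tumours without overlap, against 8.71%.

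That count moved with 1 library. Without sgCul3 tumour 2, 5 of the 8 genes fell, with Hbb-bs (log2 -3.49, limma adjusted p 0.00981), Hbb-bt (-3.74, 0.00592) and Alas2 (-4.01, 0.00412) added. The call of Epb42 was lost when any 1 of the other 6 libraries, sgGFP tumours 1 to 4 and sgCul3 tumours 1 and 3, was left out (adjusted p 0.0624 to 0.170). Slc4a1 passed in every alternative run, with adjusted p between 0.000242 and 0.0438.

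In the Keap1-guide comparison 4 of the 8 genes fell, against 3.37% of genes tested. These were Slc4a1 (-5.57 ± 0.83, limma adjusted p 0.00331), Epb42 (-2.91 ± 0.62, 0.0200), Alas2 (-3.27 ± 0.71, 0.0216) and Klf1 (-1.49 ± 0.41, 0.0485). The globins had log2 fold changes of -1.93 for Hbb-bs, -2.46 for Hbb-bt, -2.40 for Hba-a1 and -1.94 for Hba-a2, with adjusted p of 0.166, 0.0900, 0.123 and 0.166. All 8 genes lay below the sgGFP tumours without overlap, against 12.6% of genes tested. None rose, against 4.45%, or lay above them, against 13.1%. In a fit of the sgKeap1 and sgGFP tumours alone, in which the spread among sgCul3 tumours plays no part, Hbb-bs (0.0155), Hbb-bt (0.00646) and Hba-a1 (0.0264) passed and Klf1 did not (0.0615). The count fell to 1, Slc4a1, without sgGFP tumour 3 or without sgKeap1 tumour 3, and to 2, Slc4a1 and Epb42, without sgKeap1 tumour 2. Over all alternative runs of this comparison, the call of Klf1 was lost in 10 of 16. Those of Epb42 and Alas2 were lost in 3 of 16 and 3 of 17.

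Over both ligase guides together, the same 4 genes fell as with sgKeap1, against 3.19% of genes tested, and none rose, against 4.37%. The 4 that lay below the sgGFP tumours without overlap in all 6 ligase-guide tumours were these, against 4.1% of genes tested, and none lay above, against 5.13%. Slc4a1 was at -5.51 ± 0.70 (limma adjusted p 0.00133), Epb42 at -2.93 ± 0.53 (0.00864), Alas2 at -3.12 ± 0.60 (0.0122) and Klf1 at -1.47 ± 0.34 (0.0282). The 4 globins had adjusted p of 0.0617 to 0.123, and all 8 genes fell without sgCul3 tumour 2. With tumour number as a replicate block, Klf1 no longer passed in this comparison (limma adjusted p 0.0634) or with sgKeap1 alone (0.0749). Over both guides its call was lost in 6 of 18 alternative runs. This comparison and both single-guide comparisons share the same 4 sgGFP tumours.

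Between the ligase guides no member passed the test. In sgKeap1 against sgCul3 tumours the log2 differences ran from -0.31 ± 0.76 (Alas2) to 0.23 ± 0.92 (Hbb-bs), with limma adjusted p of 0.892 to 0.996, and 0.0307% of genes tested were called in each direction. No member separated the guides without overlap, against 8.24% of genes lower and 7.52% higher with sgKeap1. At an unadjusted p under 0.05 none of the 8 passed either, and edgeR and DESeq2 called none. Their standard errors of 0.43 to 1.001 leave room for differences of a doubling or more. Without sgCul3 tumour 2 all 8 differences were above 0, from 0.14 for Klf1 to 1.57 for Hbb-bs, and none was called.

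In the NRF2-edited tumours all 8 genes were low. Slc4a1 was at 644 and 327 scaled reads in controls A and B and at 6.48 and 20.1 in sgNrf2 A and B. Epb42 was at 63.6 and 38.0 in the controls and at 2.43 and 3.496 with sgNrf2. These are the membrane genes, and both edited tumours lay far below both controls.

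The globins were low in both sgNrf2 tumours too. Hbb-bs was at 11040.0 and 10983 in controls A and B and at 555 and 1169.5 in sgNrf2 A and B, and Hbb-bt was at 2442 and 3383 against 147 and 269. Hba-a1 was at 1283 and 2064 against 94.8 and 195, and Hba-a2 at 766 and 1381 against 55.1 and 128. Alas2 was at 795 and 879.6 against 89.1 and 183, and Klf1 at 51.8 and 48.1 against 10.5 and 11.4. Each sgNrf2 tumour kept 5.03% to 11.97% of the control mean for the globins, 10.6% to 21.8% for Alas2 and 21.1% to 22.8% for Klf1.

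Of the 8 genes, 7 fell with sgNrf2, against 2.51% of the 13989 genes tested. The log2 fold changes were -5.19 ± 0.67 for Slc4a1 (limma adjusted p 0.0382), -3.77 ± 0.38 for Hbb-bs (0.0299), -3.85 ± 0.37 for Hbb-bt (0.0291), -3.57 ± 0.45 for Hba-a1 (0.0360) and -3.59 ± 0.53 for Hba-a2 (0.0433). Alas2 was at -2.70 ± 0.40 (0.0442) and Epb42 at -3.68 ± 0.60 (0.0472), while Klf1 at -2.09 ± 0.48 did not pass (0.0727). All 8 lay below the controls without overlap, a criterion that 30.7% of genes met with 2 libraries a side. None rose, against 1.9% of genes tested, or lay above the controls, against 33.3%. The count was 0 without control B or without sgNrf2 A, and 2, Hbb-bs and Hbb-bt, without sgNrf2 B. Epb42 was lost with tumour letter as a replicate block (0.0593). Hepatocyte markers had a median log2 of -0.77 in this comparison, with 10 of 12 below 0, none called and 5 lower at an unadjusted p under 0.05; their part in the result was not tested.

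**Figure D2:**
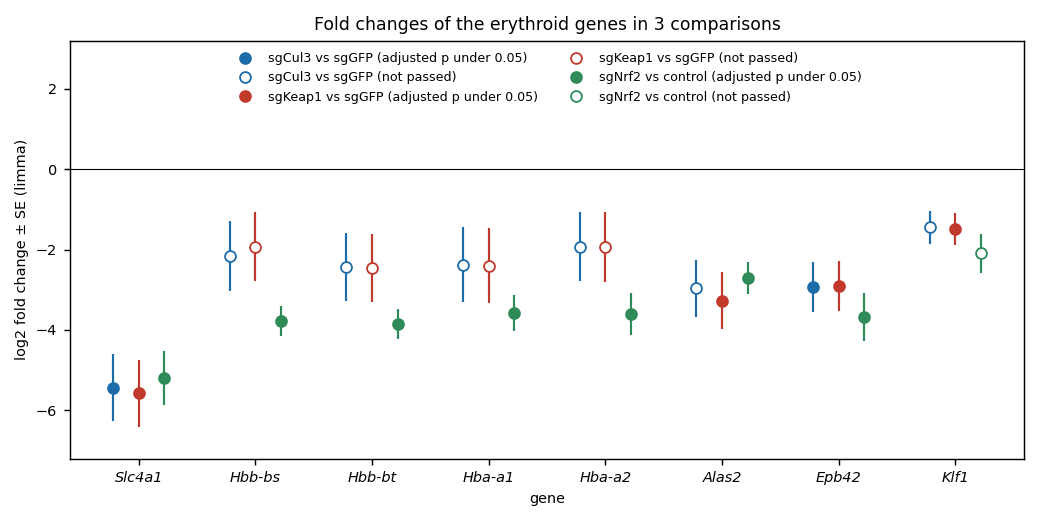
Log2 fold change (limma, vertical axis) with its standard error for each gene with the Cul3, Keap1 and NRF2 edits, filled where the adjusted p was under 0.05. All 24 values lie below 0, from -1.44 for Klf1 with sgCul3 to -5.57 for Slc4a1 with sgKeap1. The 1 added to the first table was kept, which shrinks fold changes of genes with few reads more there than in the second.

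The repeat libraries show how far a member's value moved between preparations of the same tumour. In CPM (counts scaled to library size), control A was within 0.684 to 1.34 times sgGFP tumour 2 over the 8 genes, for example 33.4 against 35.6 for Slc4a1 and 573 against 588 for Hbb-bs. Control B was lower than sgGFP tumour 4 for all 8, by ratios of 0.408 (Hba-a1) to 0.984 (Epb42), with Slc4a1 at 14.5 against 20.4. The labels do not say whether a repeat is a new extraction or a new library of the same RNA. In the second table, reads that aligned to more than one place came to 1.64 and 1.74 per gene read in the controls and 0.944 and 1.01 in the sgNrf2 libraries; near-identical globin copies can lose reads this way, and its part in the globin values was not tested.

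The members did not shrink in proportion. For each 1000 reads of Hbb-bs, sgGFP tumours 1 to 4 held 161, 60.5, 42.8 and 26.0 reads of Slc4a1. The sgCul3 tumours held 0, 5.30 and 8.98 and the sgKeap1 tumours 1.72, 5.63 and 3.10, so no guide tumour reached the sgGFP range. Controls A and B held 58.3 and 29.7, and sgNrf2 A and B 11.7 and 17.2. Slc4a1 was thus scarcer relative to beta globin in all 8 edited tumours, also in sgCul3 tumour 2, where Hbb-bs itself was at 131% of the sgGFP mean. Epb42, on few reads, did not separate in this way. It was at 2.18 to 10.3 reads per 1000 Hbb-bs reads with sgGFP, 0 to 2.99 with sgCul3 and 0.572 to 2.82 with sgKeap1. In the second table it was at 3.46 to 5.76 in the controls and 2.99 to 4.38 with sgNrf2, which overlapped.

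Alas2 and Klf1 behaved differently from Slc4a1 by this measure. Alas2 was at 62.4 to 116 reads per 1000 Hbb-bs reads with sgGFP, 30.5 to 77.8 with sgCul3 and 19.7 to 62.9 with sgKeap1, ranges that overlapped. In the second table it was higher in the edited tumours, at 161 and 156 with sgNrf2 against 72.0 and 80.1 in the controls. Klf1 was at 3.398 to 10.5 with sgGFP, 1.73 to 38.9 with sgCul3, 5.63 to 8.26 with sgKeap1, 4.38 and 4.69 in the controls and 9.72 and 19.0 with sgNrf2. Between the beta globins, 221 to 273 reads of Hbb-bt were found per 1000 of Hbb-bs in sgGFP tumours and 191 to 234 in sgCul3 tumours, which overlapped, and 165 to 193 in sgKeap1 tumours, below every sgGFP tumour. The uncertain split of reads between these copies bears on this ratio.

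**Figure D3:**
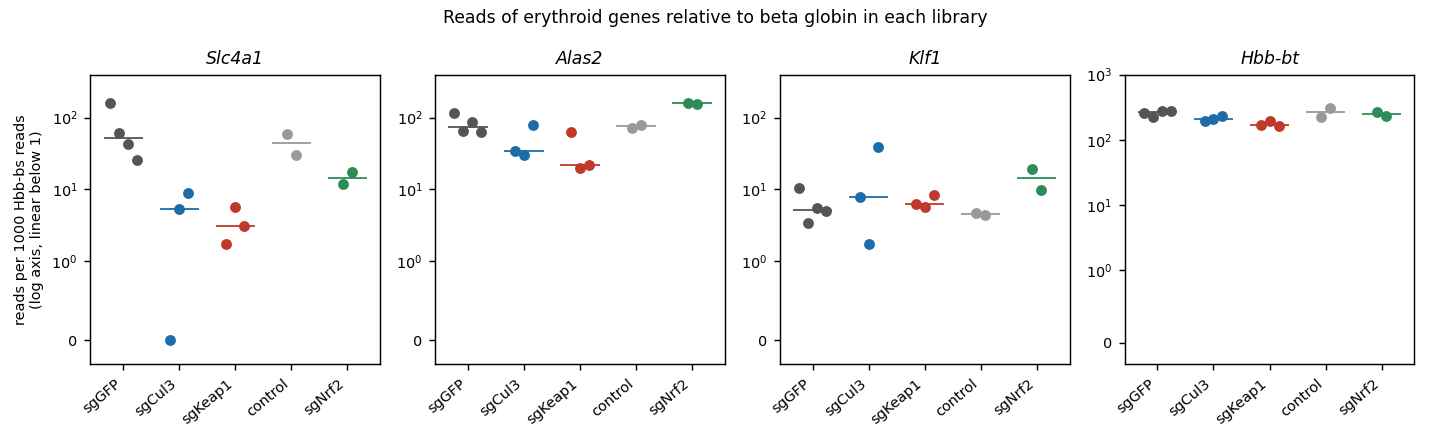
Reads of Slc4a1, Alas2, Klf1 and Hbb-bt per 1000 reads of Hbb-bs in the same library (vertical log axis, linear below 1); points are tumours and short lines group medians. Slc4a1 was at 26.0 to 161 in sgGFP tumours and at 0 to 8.98 with the ligase guides, while Hbb-bt was at 165 to 308 over all 14 libraries.

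The rest of the red cell programme was read from lists of textbook genes, without the 8 members. Of all genes tested, 0.851% fell with sgCul3, 3.37% with sgKeap1 and 2.51% with sgNrf2, while 1.35%, 4.45% and 1.9% rose. The counts of each list here and below are to be read beside these shares. Most red cell membrane and skeleton genes fell with the ligase guides: 11 of 17 tested fell with sgCul3 (median log2 -3.10 over the list, 0.01 over all genes) and 12 of 17 with sgKeap1 (-3.66, or -3.87 with 5 genes that had no read in any sgKeap1 tumour set at their bound). With sgNrf2 6 of 18 fell (-3.16). Ank1, the ankyrin that ties band 3 to the membrane skeleton, was at 36.1 to 77.6 scaled reads with sgGFP, 1.56 to 4.43 with sgCul3 (limma adjusted p 0.00446) and 0 to 1.44 with sgKeap1 (0.000518). Rhag, the Rh-associated glycoprotein, had no read with sgKeap1, at least 35.6-fold lower than the sgGFP mean of 50.9 (bound at 3 reads over the group), and Ermap likewise, at least 43.6-fold lower. Genes of the list that passed with neither ligase guide were Epb41, Gypc, Xk and Mpp1, named after their values were seen. The count with sgCul3 was 7 without sgCul3 tumour 1, and the count with sgNrf2 was 1 without control B and 0 without either sgNrf2 tumour.

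Among erythroid transcription factors other than Klf1, 4 of 10 fell with sgCul3 and 5 of 10 with sgKeap1 (median log2 -1.37 and -1.87), and 2 of 11 with sgNrf2 (-1.51). Gata1, the master factor of the lineage, was at 16.1 to 29.0 scaled reads in sgGFP tumours and at no more than 1 read in any of the 6 ligase-guide tumours (limma adjusted p 0.00485 with sgCul3 and 0.00208 with sgKeap1). Hemgn, an erythroid nuclear protein, was at 11.6 to 57.3 with sgGFP, 0 to 2.66 with sgCul3 (0.0136) and 0 in all sgKeap1 tumours (0.00271, at least 28.2-fold lower). Ldb1, a cofactor of GATA1 that is widely expressed, was at 1162 to 1588, 593 to 764 (0.0387) and 298 to 505 (0.000790). The count with sgCul3 was 1 without sgGFP tumour 3 or without sgCul3 tumour 1 and 2 without sgGFP tumour 2; with sgKeap1 it was 3 without sgGFP tumour 3 or sgKeap1 tumour 3, and with sgNrf2 it was 0 without control B or either sgNrf2 tumour.

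Fewer genes were called in the lists of heme synthesis, iron supply, erythropoietin signalling and late maturation. Some of their genes were abundant in sgGFP tumours, with Tfrc at 5557 to 8433 scaled reads, Cat at 3701 to 5192 and Alad at 685.5 to 1229. Reads of a whole tumour cannot be split by cell type, so a change limited to red cells could be missed in such genes. Of 8 further enzymes of heme synthesis, none fell or rose with sgCul3, sgKeap1 or sgNrf2 (median log2 -0.12, -0.06 and -0.11); with limma, 1 was lower at an unadjusted p under 0.05 with sgCul3, 1 with sgKeap1 and 0 with sgNrf2. Of 11 genes of iron supply, among them the transferrin receptor Tfrc, none was called with any of the 3 edits (0.02, 0.05 and -0.12). Of 10 genes of erythropoietin signalling 1, the kinase Pim1, fell with sgKeap1 (adjusted p 0.0223), and none fell without sgGFP tumour 1, 2 or 3 or sgKeap1 tumour 2 or 3. With sgKeap1 6 of these 10 were below 0. Erfe, next by adjusted p, went the other way and did not pass (0.0691). It was at 22.37 to 82.99 scaled reads with sgGFP, 53.17 to 131.3 with sgCul3 and 76 to 200.7 with sgKeap1. These ranges overlapped. Erfe was also higher with sgNrf2, at 255.2 and 152.1 against 115.4 and 48.09 in the controls, and was not called. Among 16 genes of late maturation Trim10 fell with both ligase guides (0.0357 and 0.00959) and Bpgm, the enzyme of 2,3-bisphosphoglycerate, with sgKeap1 (0.0352), while Blvrb, a biliverdin reductase, rose with both (0.0179 and 0.000807) and catalase, Cat, with sgKeap1 (0.00271) and sgNrf2 (0.0408). With sgNrf2 Bnip3l, Tspo2 and Prdx2 fell (0.0473, 0.0429 and 0.0445). Of the late maturation genes none fell with sgCul3 when any 1 library but sgCul3 tumour 2 was left out and 2 fell without that one, and none rose without sgGFP tumour 3 or sgCul3 tumour 1 or 2. With sgKeap1 1 fell without sgGFP tumour 1, 3 or 4 or sgKeap1 tumour 3, and with sgNrf2 none fell or rose without either sgNrf2 tumour, while 1 fell and none rose without control B. Slc48a1, a heme transporter, and Ftl1, a ferritin chain, from the list of red cell clearance, rose with sgCul3 (0.0383 each), sgKeap1 (0.000639 and 0.0116) and sgNrf2 (0.0446 and 0.0357), and the hormone gene Hamp and the ferritin gene Fth1 with sgKeap1 (0.00456 and 0.0470). The rises in this list with sgCul3 (3 of 14) numbered 0 without sgGFP tumour 3 or without sgCul3 tumour 1 or 2 and 1 without sgGFP tumour 2. With sgNrf2 (2 of 14) they numbered 0 without either sgNrf2 tumour, 1 without control B and 6 without control A.

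SgCul3 tumour 2 separated the globins from most red cell membrane genes and erythroid transcription factors. In it, 0 of 4 globins lay below all sgGFP tumours, with a median at the sgGFP mean (log2 -0.01). By contrast, 15 of 17 membrane genes (-2.27) and 8 of 10 transcription factors (-1.25) lay below. Other red cell lists were less separated. There 1 of 8 heme synthesis, 1 of 11 iron supply, 4 of 10 erythropoietin signalling and 6 of 16 late maturation genes lay below. In the other 5 ligase-guide tumours 4 of 4 globins, 13 to 14 of 17 membrane genes and 7 to 9 of 10 factors lay below. The share of all genes tested that lay below all sgGFP tumours in a single tumour was not computed, so these counts have no baseline. In each of the 6 tumours 1 to 3 of the 17 membrane genes lay above all sgGFP tumours, so the list did not move as a whole.

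**Figure D4:**
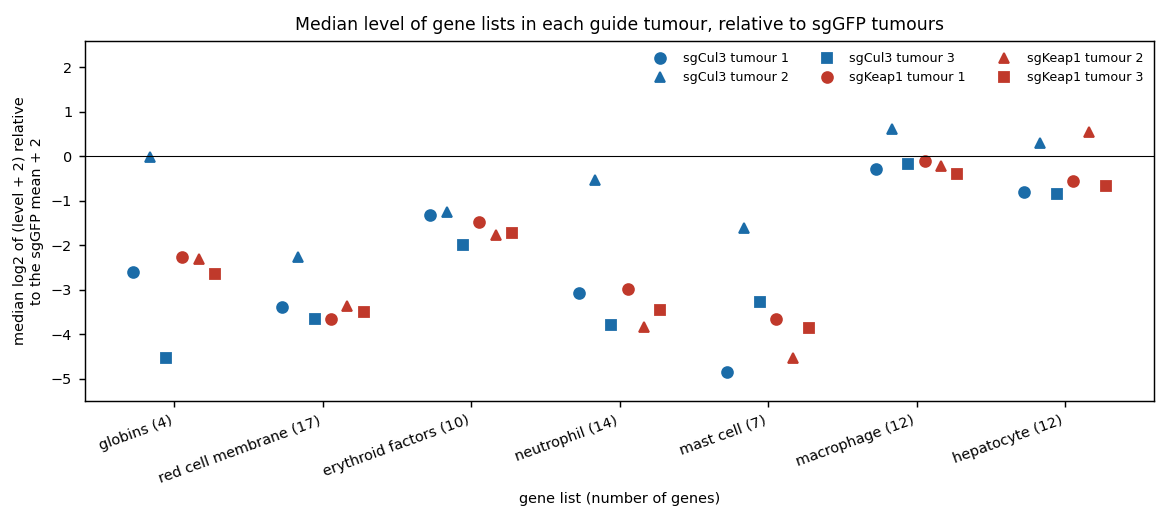
Median over the genes of a list of the log2 ratio of (level + 2) to (sgGFP mean + 2), for each of the 6 ligase-guide tumours (symbols as in the key). SgCul3 tumour 2 was at -0.01 for the globins and -2.27 for red cell membrane genes, and at -0.54 for neutrophil markers, where the other 5 were at -2.99 to -3.85.

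Neutrophil markers were also low in edited tumours, not to the same extent in each comparison. Over all genes tested, 3.37% fell with sgKeap1, 0.851% with sgCul3 and 2.51% with sgNrf2. Of 14 neutrophil and myeloid progenitor markers tested, 10 fell with sgKeap1 (median log2 -3.34, or -3.44 with Ctsg at its bound), 0 passed with sgCul3 (-1.99; with limma 10 were lower at an unadjusted p under 0.05, edgeR called 0 and DESeq2 4) and 4 of 15 fell with sgNrf2 (-4.08). Their summed level was 930.0 to 5461 scaled reads in sgGFP, 185 to 3109 in sgCul3 and 195 to 288 in sgKeap1 tumours, and 5509 to 11630 in the controls against 284 to 724 with sgNrf2. Of the 3 sgCul3 tumours, tumour 2 was the highest at 3109, as it was for the globins. Of the defining genes of granulocyte progenitors, Ctsg had no read in any sgKeap1 tumour, Elane none in sgKeap1 tumour 2 and Mpo none in sgCul3 tumour 1 or sgNrf2 A. SgKeap1 tumours 2 and 3 had 6505295 and 6754550 gene reads, against 11317551 in sgKeap1 tumour 1 and 10739965 to 12008223 in sgGFP tumours. At these unequal depths, 2 to 7 of the 15 markers measured were at 0 in each sgKeap1 tumour (4, 7 and 2 in tumours 1 to 3) and 0 in each sgGFP tumour. The count was 4 without sgKeap1 tumour 2 or 3 and 3 with sgCul3 without its tumour 2, and with sgNrf2 it was 0 without sgNrf2 A, 1 without control B and 2 without sgNrf2 B. Their part in the red cell values was not tested.

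Mast cell markers were low with sgKeap1, where 4 of 7 fell (median log2 -3.59, or -3.74 with Fcer1a at its bound), a count that was 0 without sgGFP tumour 2 or 3 or sgKeap1 tumour 3, 1 without sgGFP tumour 1 or sgKeap1 tumour 2, and 6 without sgGFP tumour 4. They were not called with sgCul3 (0 of 7; 5 at an unadjusted p under 0.05 with limma, 0 with edgeR and 4 with DESeq2). With sgNrf2 the list had a median of 1.24, with 2 of 7 below 0 and none called (1 lower at an unadjusted p under 0.05, 0 with edgeR, 1 with DESeq2). Their summed level was 153 to 947 scaled reads in sgGFP, 15.2 to 129 in sgCul3 and 17.3 to 28.4 in sgKeap1 tumours, and 266 to 2009.8 in controls against 785 to 2215 with sgNrf2, ranges that overlapped. Macrophage and Kupffer cell markers overlapped between groups of the first table, at 1504 to 8454 in sgGFP, 3324 to 5848 in sgCul3 and 2485 to 4423 in sgKeap1 tumours. Of 6 megakaryocyte and platelet markers, 2 fell with sgCul3 (Itgb3 and Vwf) and 3 with sgKeap1 (Itgb3, Vwf and Ppbp), and 1 (Ppbp) with sgNrf2; with sgCul3 none was called without any 1 library other than sgGFP tumour 4, and with sgNrf2 none without control B or either sgNrf2 tumour. With sgKeap1 the count was 1 without sgGFP tumour 1, 3 or 4 or sgKeap1 tumour 2 or 3, and 2 without sgGFP tumour 2. With sgNrf2 2 of 11 macrophage markers fell (Clec4f and Marco), although the median of the list was 0.89 with 5 of 11 below 0, and its summed level of 9719 to 11636 lay within the 2844 to 16560.5 of the controls. Also with sgNrf2, Thy1 among lymphocyte and Pecam1 among endothelial markers rose, and with sgCul3 the endothelial marker Lyve1 fell (adjusted p 0.0281). These calls with sgNrf2 numbered 0 without control B or either sgNrf2 tumour, and no endothelial marker fell with sgCul3 without sgGFP tumour 1, 2 or 3 or sgCul3 tumour 1. The part of these cells in the red cell values was not tested.

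Slc4a1 was not the single anion exchanger that was low. Slc4a9, a bicarbonate transporter known from the intercalated cells of the kidney, was at 545, 309, 767 and 618 scaled reads in sgGFP tumours 1 to 4, at 26.2, 26.6 and 21.9 with sgCul3 and at 40.04, 0 and 43.3 with sgKeap1 (limma adjusted p 0.0367 and 0.00777). It was at 596 and 699 in the controls and at 0 and 1.75 with sgNrf2 (0.0237). The sgCul3 call was lost when any 1 library was left out, and the sgNrf2 call without control B or sgNrf2 A. Slc4a2, the exchanger most cells use, overlapped between groups (0.656 and 0.144). Of the intercalated cell genes in the same list, 5 besides Slc4a1 were tested and only Slc4a9 passed.

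Across the 10 libraries of the first table the members split by pattern, as measured by Pearson correlation of log2 values, which is given as a description since the libraries share their groups and depth. Slc4a1 ran closest to Epb42 (r = 0.986), and the next closest genes included Rhd (0.976), Kel (0.974) and Ermap (0.964), genes known from the red cell surface or membrane, and its correlation with Hbb-bs (0.790) ranked 249 among 13044 genes. The genes closest to Hbb-bs included Hbb-bt (0.990), Hba-a1 (0.965), Hba-a2 (0.960) and Gm7463 (0.928). Alas2 ran closest to Bpgm (0.949), Hdc (0.947), Mmp8 (0.946), Fam46c (0.943) and Aldoc (0.940), of which Hdc stands in the mast cell list and Mmp8 in the neutrophil list. Klf1 ran closest to RP23-370A2.6 (0.959), Asap3 (0.943), Sall4 (0.936), Angptl4 (0.935) and Ermap (0.935).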

How the data were processed

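Total RNA of 14 tumour libraries was sequenced after Qiagen extraction and Illumina TruSeq library preparation, per the labels' protocols. The authors deposited 2 tables of scaled gene counts, a signal in the terms used here; HTSeq, DESeq, Picard and mm10 are named in the submitters' processing notes, while the aligner, read length, strand setting and annotation release were not stated there or in the labels. The first table holds a 1 added to every entry, which was removed for levels and kept for the main test. The deposited signal values fell on steps of the size of 1 read in each library (100% of them within 0.1 reads), which gave reads, CPM and reads per kilobase (GENCODE M21 exonic length).

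The test was limma (version 3.58.1, R 4.3.3) with a mean-variance trend on log2(value + 1), for genes whose deposited values averaged 10 or more, two-sided, all 10 libraries of the first table in 1 fit and the 4 of the second in another, with Benjamini-Hochberg adjustment over all genes tested. Groups came from the labels. Adjusted p-values are from limma unless edgeR (4.0.16) or DESeq2 (1.42.0), run on the recovered reads, is named. The script was tested on simulated data. Same-numbered sgGFP and sgCul3 tumours deviated together (correlations 0.164, 0.175 and 0.314), which came from the data and not from the labels. Same-numbered sgCul3 and sgKeap1 tumours had correlations of 0.239, 0.518 and 0.098, and different-numbered ones of -0.436 to 0.264. The sgKeap1 and sgNrf2 tumours did not pair with their controls.

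The members and gene lists were chosen with earlier results of these data known. Genes named from a list are the up to 4 with the smallest adjusted p with sgCul3 or sgKeap1, and the 5 most correlated with each member, of which some are not reported here; list members given outside this rule are those needed to name a small count. Reads carry no molecular identifiers, so intervals cover counting error only.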

Additional observations from a re-analysis of the deposited data

How the results depend on the processing

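Alternatives were a pseudocount of 5, removal of the added 1, no filter, a filter at a mean of 50 in place of 10, scaling by quantiles or to equal totals, edgeR, DESeq2, the replicate block, the 2 groups alone and each library left out. The number of members that fell with sgCul3 (2) was 1 with a mean of at least 50, with edgeR and with the 2 groups alone, 4 with DESeq2, and 1 to 5 when 1 library was left out. With sgKeap1 (4) it was 2 with a mean of at least 50, which leaves 6 members to test, 6 with DESeq2 and with the 2 groups alone, and 1 to 3 with 1 library left out. With both guides (4) it was 2 and 3 to 8, and with sgNrf2 (7) it was 0 to 7 with 1 library left out, where the lone library of an arm is assumed to vary like the others. With the paired fit, the replicate block, Klf1 was lost with sgKeap1 (log2 -1.36, adjusted p 0.0749) and with both guides (-1.34, 0.0634) and Epb42 with sgNrf2 (-3.68, 0.0593), and it changed no other member's call. Directions turned only between sgKeap1 and sgCul3, where no member was called under any alternative: Epb42 was at -0.0522 with pseudocount 5, -0.000397 with quantile normalization, -0.15 with equal totals, -0.74 with edgeR and -0.72 with DESeq2, Slc4a1 at 0.0873 with the 1 removed, and Hbb-bs at -0.00527 with equal totals, -1.05 with edgeR and -1.04 with DESeq2. With 1 library left out the ranges there were -1.05 to 1.16 (Slc4a1), -0.87 to 1.57 (Hbb-bs), -1.05 to 1.28 (Hbb-bt), -1.34 to 1.16 (Hba-a1), -1.03 to 1.09 (Hba-a2), -0.97 to 0.74 (Alas2), -0.44 to 0.72 (Epb42) and -0.25 to 0.14 (Klf1), the high end in each case without sgCul3 tumour 2. Equal totals moved the median of all genes to -0.20 with sgKeap1, 0.34 with sgNrf2 and -0.24 between the ligase guides; no other scaling moved it by over 0.1. Depth limits Slc4a1, Epb42 and Klf1 in edited tumours, which rest on few reads.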
